A study of Mus musculus with 9 samples.

Results

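The IL-17, IL-22 and IL-23 axis of the mouse colon was examined through 10 genes, found by their symbols among the 21959 genes of the deposited count table. The 10 genes were 5 ligand genes (Il17a, Il17f, Il17c, Il22 and Il23a), 4 receptor genes (Il17ra, Il17re, Il22ra1 and Il23r) and 1 soluble inhibitor (Il22ra2). The colons came from wild-type mice in 3 groups of 3 libraries. Blank mice were labelled as having no treatment. Model mice received dextran sulfate sodium (DSS), a polymer that injures the colon lining and causes colitis. CDs mice received DSS together with carbon dots, nanometre-sized carbon particles, made from lotus node charcoal. The sources used here do not state the doses, the schedule, or the age and strain of the mice. Of the 10 genes, 7 passed the filter on low counts and were tested, while Il17a, Il17c and Il23a were too low to judge.

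IL-23 is a cytokine of dendritic cells and macrophages, built from the Il23a product and the Il12b product, and it acts through the receptor chains of Il23r and Il12rb1 on T cells and innate lymphocytes. Those lymphocytes release IL-17A, IL-17F and IL-22. IL-17A and IL-17F signal through the Il17ra and Il17rc chains in epithelium and stroma, and IL-22 signals through the Il22ra1 and Il10rb chains in epithelium, where the axis is known for antimicrobial defence and repair. IL-17C comes from epithelial cells and uses the chain of Il17re.

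Libraries held 13868864 to 19940300 counted reads. Levels below are read counts scaled to the library total and between libraries (CPM), and 3 reads, taken as the limit of a count of 0, corresponded to 0.142 to 0.221 CPM, a limit that covers counting error only. Fold changes are log2 ratios of group means with their standard error (SE), and a gene was called when its Benjamini-Hochberg adjusted p in edgeR's quasi-likelihood test was under 0.05. The 17 markers of colon epithelium had summed levels of 20633 to 30334 CPM in Blank, 12136 to 22211 CPM in Model and 11723 to 23532 CPM in CDs. Genes of pancreatic acinar cells summed to 8405 CPM in Model 1, 70998 CPM in Model 3 and 321 CPM in CDs 1, beside 3.85 to 20.3 CPM in the other 6 libraries. Genes of male accessory glands summed to 1500.1 CPM in Blank 2 and 169 CPM in Blank 3, beside 1.02 to 2.57 CPM elsewhere. In a bulk library, fewer cells of a type and less RNA per cell cannot be told apart. The sources used here do not say whether a replicate number marks a shared cage or day.

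The start regions of 3 genes of the axis are shown. Their transcripts mark the type 17 lymphocyte side of the axis, and they were picked because their regions share 1 short motif. Each run is the 250 bases before the gene's start in RefSeq on GRCm38.p6, 5′ to 3′ on the gene's own strand. Capitals mark matches, on either strand, to AGGTCA, a core motif of nuclear receptors, and in Il17a also 1 match to TGANTCA, a form of the AP-1 motif. The regions are chr1:20730655-20730904 on the plus strand for Il17a, chr1:20784271-20784520 on the minus strand for Il17f and chr6:67491856-67492105 on the minus strand for Il23r.
Il17a: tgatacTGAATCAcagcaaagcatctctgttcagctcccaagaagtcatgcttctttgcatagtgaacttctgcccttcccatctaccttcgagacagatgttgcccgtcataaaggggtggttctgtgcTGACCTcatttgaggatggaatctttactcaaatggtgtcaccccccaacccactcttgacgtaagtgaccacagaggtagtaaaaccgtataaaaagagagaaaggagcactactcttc
Il17f: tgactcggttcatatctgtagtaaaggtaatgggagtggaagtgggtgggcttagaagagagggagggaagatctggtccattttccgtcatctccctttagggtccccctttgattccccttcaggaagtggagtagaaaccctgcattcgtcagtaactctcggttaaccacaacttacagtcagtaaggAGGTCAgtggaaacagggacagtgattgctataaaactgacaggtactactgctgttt
Il23r: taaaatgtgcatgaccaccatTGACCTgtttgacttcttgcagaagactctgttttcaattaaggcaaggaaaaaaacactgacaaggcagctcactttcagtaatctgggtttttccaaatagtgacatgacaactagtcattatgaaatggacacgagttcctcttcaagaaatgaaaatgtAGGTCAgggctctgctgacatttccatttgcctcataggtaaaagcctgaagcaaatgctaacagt
The AGGTCA matches began 120 bases before the start in Il17a, 58 bases before it in Il17f, and 66 and 229 bases before it in Il23r. Windows were matched for 7 of the 10 genes. AGGTCA was present in 3 of those 7, the 3 shown, beside 14.02% of all 32851 windows of that length. The window of Il22, also a gene of the type 17 lymphocyte side, held no AGGTCA match. TGANTCA was present in 2 of the 7, Il17a and Il22ra1, beside 6.75% of all windows. TTCNNNGAA, a STAT motif, was in none of the 7 (0 of 7), beside 7.02% of all windows. These matches describe letters in a window and do not show that a factor binds there.

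Il22 was the ligand with the most reads. IL-22 is known to drive epithelial repair and antimicrobial secretion. Its gene lies on chromosome 10 (118040847 to 118045952 on the plus strand, as deposited, with no build named). Il22 had 0 reads in Blank 1, 0 in Blank 2 and 8 in Blank 3, then 28, 37 and 37 reads in Model 1 to 3, and 282, 40 and 71 reads in CDs 1 to 3. As levels, Blank had 0, 0 and 0.590 CPM, Model had 2.03, 1.76 and 2.48 CPM, and CDs had 18.04, 2.39 and 5.22 CPM. Every DSS-treated library was above every untreated one, Model and CDs overlapped, and CDs 1 held 71.8% of the Il22 reads of its group. The fold change was 3.43 ± 1.15 (SE) in Model versus Blank (edgeR adjusted p = 0.0386) and 5.46 ± 1.10 in CDs versus Blank (adjusted p = 0.00596). Without CDs 1, the latter was 4.29 (adjusted p = 0.0112).

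The Il22 call in Model versus Blank was lost when Blank 1, Blank 2 or any 1 of the Model libraries was left out (edgeR adjusted p = 0.0571 to 0.109). Without Blank 3, the only untreated library with a read, the fitted value rose to 8.04, which is no bound since the remaining untreated libraries were at 0. The mouse genome holds a near-identical copy, Il22b (also Iltifb), whose transcript was 97.4% identical to that of Il22 over 1110 aligned bases. Il22b held 7 reads in all against 503 for Il22. Of all stretches of 100 bases in the Il22 transcript, 20.4% were found unchanged in Il22b. Reads that match both copies may be missing or misplaced in the counts, so the exact Il22 level is uncertain.

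Il17a and Il17f encode the 2 IL-17 cytokines that recruit neutrophils through epithelial and stromal chemokines, and they lie beside each other on chromosome 1. Il17a had 0 reads in each Blank library, 4, 12 and 11 reads in Model 1 to 3, and 32, 4 and 6 reads in CDs 1 to 3. All 6 DSS-treated libraries thus held Il17a reads and no untreated library did. Set against 3 reads per untreated library, the mean Il17a level was 2.58-fold that limit in Model and 4.40-fold in CDs. Without the highest library of each group, the ratios were 2.08-fold in Model and 1.65-fold in CDs, where CDs 1 held 76.2% of the reads. These ratios allow for counting error in Blank only, and not in the few DSS-treated reads or between mice. They are therefore not lower bounds. Il17a did not reach the filter. With no filter, edgeR gave it an adjusted p of 0.0299 in Model versus Blank and 0.0186 in CDs versus Blank.

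Il17f had 2, 5 and 2 reads in Blank 1 to 3, 9, 11 and 11 reads in Model, and 55, 1 and 10 reads in CDs. As levels, the 3 groups had 0.206 ± 0.119 CPM (SD, n = 3), 0.638 ± 0.109 CPM and 1.44 ± 1.83 CPM. Model lay above Blank in every library, while CDs ran from the lowest level of the 9 libraries (CDs 2) to the highest (CDs 1). No comparison of Il17f was called. Its fold change was 1.58 ± 1.19 in Model versus Blank (edgeR adjusted p = 0.303) and 2.76 ± 1.10 in CDs versus Blank (adjusted p = 0.0802). The latter was called without CDs 2 (adjusted p = 0.0160) and by DESeq2 (adjusted p = 0.0349), and without CDs 1 it was 0.84 (adjusted p = 0.496).

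The other ligand genes were near the limit of detection. Il17c, the epithelial member of the family, had 0 to 3 reads in Blank, 3 to 6 in Model and 1 to 4 in CDs. Il23a, which encodes the subunit particular to IL-23, had 1 to 10 reads in Blank, 3 to 7 in Model and 2 to 11 in CDs. As levels, every Model library of Il17c (0.218 to 0.285 CPM) was above every Blank library (0 to 0.193 CPM), within a few reads, and CDs overlapped both. The groups overlapped for Il23a. With no filter neither gene passed the test in any comparison (edgeR adjusted p = 0.218 for Il17c and 0.965 for Il23a in Model versus Blank). Differences in these 2 genes were not detectable at this depth.

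**Figure D1:**
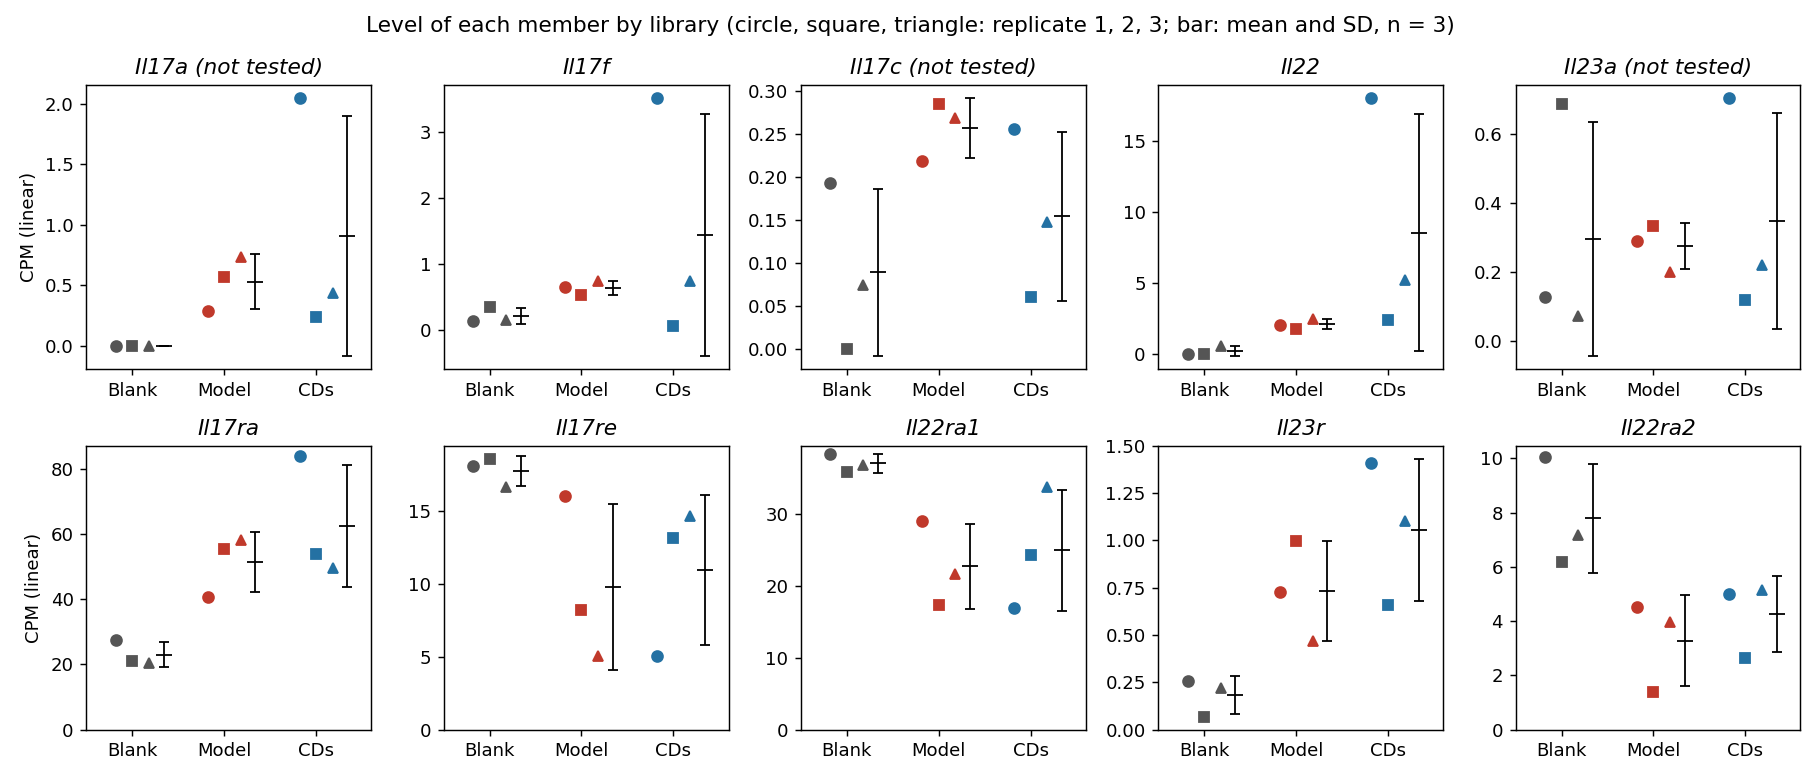
Level of each of the 10 genes in CPM (linear axis, separate scale per gene) in the 3 libraries of Blank, Model and CDs, with the mean and SD (n = 3) as a bar beside the points. Il22, Il17a and Il17f are highest in CDs 1, Il17ra is higher in all 6 DSS-treated libraries than in Blank, and Il22ra1 and Il22ra2 are lower in all 6.

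Il17ra rose in both DSS-treated groups. It encodes the chain shared by receptors of IL-17A, IL-17F, IL-17C and IL-25 and is known from leukocytes as well as epithelium and stroma. Its gene lies on chromosome 6 (120440208 to 120464520 on the plus strand, as deposited). Il17ra was at 27.5, 21.1 and 20.6 CPM in Blank 1 to 3, at 40.8, 55.3 and 58.2 CPM in Model, and at 83.9, 53.9 and 49.6 CPM in CDs. No DSS-treated library reached down to the untreated range. The fold change was 1.16 ± 0.23 in Model versus Blank (edgeR adjusted p = 0.00432) and 1.44 ± 0.23 in CDs versus Blank (adjusted p = 0.00218). The calls held without each library in turn and were lost with Blank 2 and Blank 3 both left out, which leaves 1 untreated library (adjusted p = 0.135 and 0.102).

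Il17rc, the chain that joins Il17ra to bind IL-17A and IL-17F, went the other way. It had 60.5 to 76.1 CPM in Blank, 22.5 to 52.3 CPM in Model and 27.1 to 53.4 CPM in CDs, with no overlap between untreated and DSS-treated libraries. Its fold change was -1.04 ± 0.33 in Model versus Blank (edgeR adjusted p = 0.0333) and -0.71 ± 0.33 in CDs versus Blank (adjusted p = 0.123). The call was lost without any 1 Blank library, without Model 2 and without Model 3 (adjusted p = 0.0510 to 0.112). In Model, Il17ra was thus called higher and its partner chain Il17rc lower. Il17rc was not set beside the epithelial sum, and the part of cell content in either gene was not tested.

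Il23r encodes the chain that lets lymphocytes respond to IL-23. It had 4, 1 and 3 reads in Blank 1 to 3, 10, 21 and 7 reads in Model, and 22, 11 and 15 reads in CDs. As levels, Blank had 0.182 ± 0.1002 CPM (SD, n = 3), Model 0.731 ± 0.264 CPM and CDs 1.06 ± 0.377 CPM. Counts were few, yet no DSS-treated library overlapped Blank. The fold change was 1.98 ± 0.56 in Model versus Blank (edgeR adjusted p = 0.0201) and 2.47 ± 0.54 in CDs versus Blank (adjusted p = 0.00866). Without Blank 2 or without Model 2 the former lost its call (adjusted p = 0.0662 and 0.0765).

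Il22ra1, the epithelial receptor chain for IL-22, fell in Model. Its gene lies on chromosome 4 (135455483 to 135479451 on the plus strand, as deposited). Il22ra1 was at 38.5, 35.9 and 36.8 CPM in Blank 1 to 3, at 29.1, 17.4 and 21.7 CPM in Model, and at 16.9, 24.3 and 33.7 CPM in CDs. Blank was tight and above every DSS-treated library, while Model and CDs overlapped. The fold change was -0.71 ± 0.25 in Model versus Blank (edgeR adjusted p = 0.0491) and -0.57 ± 0.25 in CDs versus Blank (adjusted p = 0.109). The call in Model was close to the threshold: it was lost without any 1 Blank library, Model 2, Model 3 or CDs 2 (adjusted p = 0.0694 to 0.151), and with no filter on low counts (adjusted p = 0.0530).

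The mean epithelial sum and the mean Il22ra1 level were both lower in Model than in Blank. Single libraries departed from this. Blank 2 had a lower sum (20633 CPM) than Model 1 (22211 CPM) and CDs 3 (23532 CPM), but more Il22ra1 than either. Of the 17 epithelial markers, 3 fell in CDs versus Blank (17.6%), beside 13.8% of all genes. In Model versus Blank 5 fell (29.4%), beside 19.6% of all genes. The median fold change there was -0.72 over the list, beside -0.03 over all genes tested. The count that fell was 3 without any 1 of the Blank libraries, Model 2 or Model 3, 8 without CDs 1 and 13 without Model 1. With Blank 2 and Blank 3 both left out it was 1, and without the 3 libraries with pancreatic genes it was 15. Each of those last fits has an arm of 1 library, Blank 1 or Model 2, whose spread is taken from the other groups. Per 1000000 CPM of the epithelial sum, Il22ra1 was at 1525, 1742 and 1214 in Blank 1 to 3, at 1311, 1432 and 1715 in Model, and at 1441, 1414 and 1434 in CDs. The 3 groups overlapped on this scale, and the lowest and the highest value were both in Blank. The log2 difference of the group means was within 0.05 in each comparison (exact permutation p = 1 in Model versus Blank, 0.9 in CDs versus Model and 0.7 in CDs versus Blank, two-sided, where 3 against 3 cannot go below 0.1). A p of this size does not show that the ratios are equal.

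Il17re, the chain used by IL-17C, was at 18.1, 18.5 and 16.6 CPM in Blank 1 to 3, at 16.0, 8.21 and 5.03 CPM in Model, and at 5.05, 13.2 and 14.6 CPM in CDs. Its DSS-treated libraries were all below Blank and spread over a wider range. The fold change was -0.87 ± 0.45 in Model versus Blank (edgeR adjusted p = 0.146) and -0.70 ± 0.45 in CDs versus Blank (adjusted p = 0.247), and neither was called. Model 1 had the highest Il17re and the highest epithelial sum of its group. Model 1 and Model 3 both hold pancreatic transcripts, and Model 3, with more of them, had the lowest Il17re of the group. Without Model 1, Il17re was called in Model versus Blank (-1.41, adjusted p = 0.0268). Per epithelial sum the log2 difference was -0.29 (exact permutation p = 0.5, n = 3 against 3).

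Il22ra2 encodes IL-22 binding protein, a soluble decoy made mainly by dendritic cells that holds IL-22 away from its receptor. It was at 10.03, 6.17 and 7.16 CPM in Blank 1 to 3, at 4.50, 1.38 and 3.96 CPM in Model, and at 4.99, 2.63 and 5.15 CPM in CDs. All DSS-treated libraries were below all untreated ones. The fold change was -1.27 ± 0.44 in Model versus Blank (edgeR adjusted p = 0.0419) and -0.88 ± 0.43 in CDs versus Blank (adjusted p = 0.138). The call in Model was lost without any 1 Blank library, Model 2, Model 3 or CDs 3 (adjusted p = 0.0550 to 0.132). The inhibitor thus fell in Model while its ligand, Il22, rose.

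Of 11 dendritic cell markers, none was called lower with Il22ra2. In Model versus Blank 7 rose and 0 fell, beside 24.5% and 19.6% of all genes, among them Clec10a (3.03 ± 0.32), Zbtb46 (1.67 ± 0.25) and Batf3 (1.69 ± 0.27). Xcr1, a marker of 1 dendritic subset named after its values were seen, was not called (-0.30 ± 0.68) and ran from 0.237 to 3.42 CPM in Model beside 1.92 to 2.73 CPM in Blank. Their summed level was 99.1 to 151 CPM in Blank, 184 to 258 CPM in Model and 208 to 303 CPM in CDs.

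**Figure D2:**
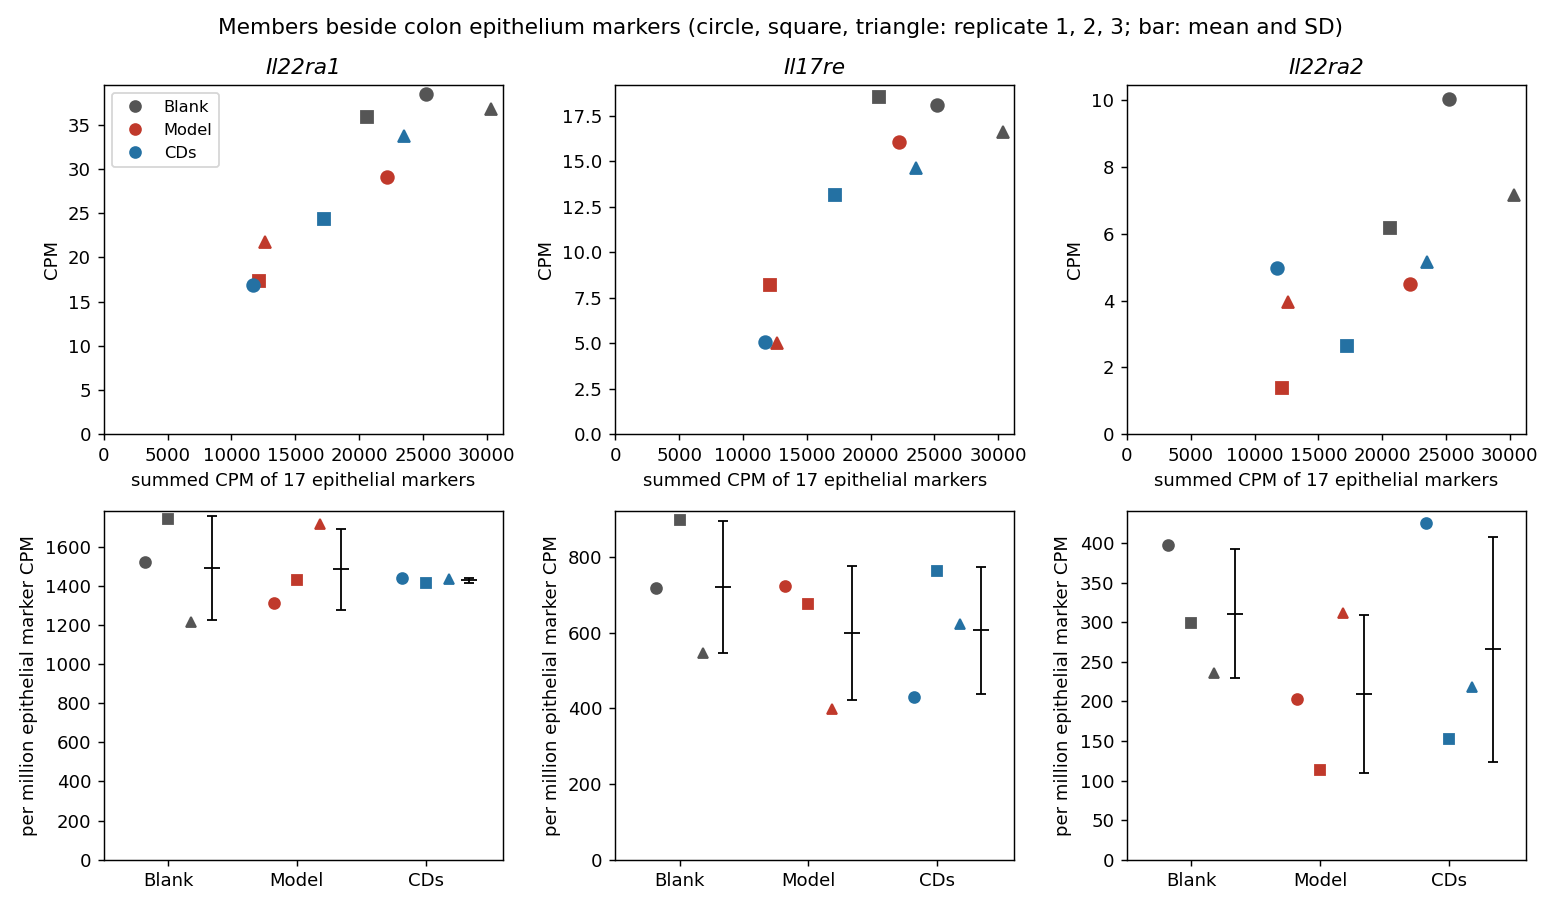
The upper row plots Il22ra1, Il17re and Il22ra2 (CPM) against the summed CPM of 17 colon epithelium markers in each of the 9 libraries, and the lower row gives the same genes per 1000000 CPM of those markers by group, with mean and SD (n = 3). Il22ra1 is lower in every DSS-treated library than in Blank. Per 1000000 CPM of the markers it lies between 1214 and 1742 in all 9 libraries.

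Among the 7 genes tested, 3 were called higher (Il22, Il17ra and Il23r) and 2 lower (Il22ra1 and Il22ra2) in Model versus Blank. Over all 14921 genes tested, 44.1% were called, 24.5% higher and 19.6% lower. In CDs versus Blank, 3 were called higher (Il22, Il17ra and Il23r) and 0 lower, beside 35.6% of all genes called, 21.8% higher and 13.8% lower. Groups did not overlap for 7 of 7 genes in Model versus Blank, beside 61% of all genes, and for 6 of 7 in CDs versus Blank, beside 54.1%. Il17f, Il22 and Il23r reached the filter through DSS-treated libraries alone, so the counts over the 7 lend no support to a shared direction.

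**Figure D3:**
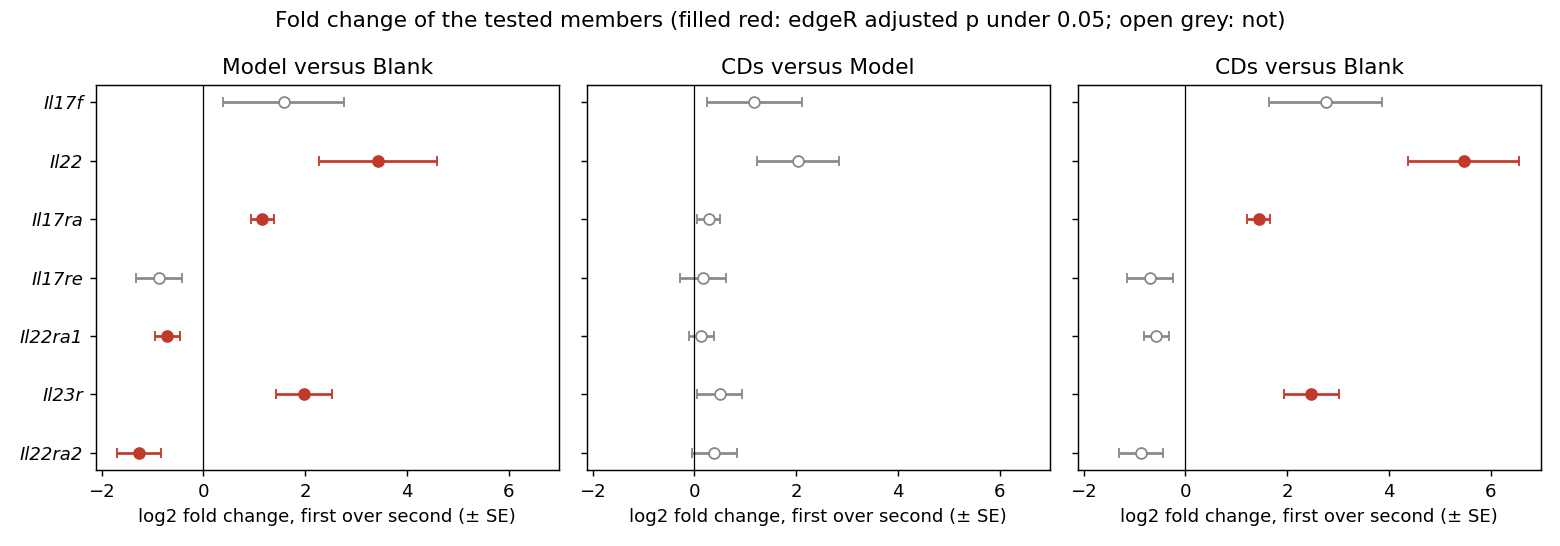
Fold change (log2, first group over second, ± SE) of the 7 tested genes in the 3 comparisons, filled where the edgeR adjusted p is under 0.05. Il22, Il17ra and Il23r are filled and above 0 in both comparisons with Blank, Il22ra1 and Il22ra2 are filled and below 0 in Model versus Blank, and no gene is filled in CDs versus Model.

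Per length of transcript, the genes fell into a high and a low set. The deposited FPKM (reads scaled to gene length and library total) placed Il22ra1 first in Blank at 13.98 ± 0.493 FPKM (SD, n = 3), followed by Il22ra2 at 3.02 ± 0.774, Il17re at 2.93 ± 0.144 and Il17ra at 2.58 ± 0.422 FPKM. Those latter 3 did not differ beyond their spread. The other 6 genes had mean levels of 0 to 0.173 FPKM in Blank. In Model the order began with Il22ra1 at 8.87 ± 2.11 and Il17ra at 5.98 ± 1.14 FPKM, and Il22 stood at 1.89 ± 0.260 FPKM, within the spread of Il17re at 1.67 ± 0.952 FPKM. In CDs, Il22ra1 at 9.85 ± 2.89, Il22 at 8.13 ± 8.30 and Il17ra at 7.46 ± 2.65 FPKM did not differ beyond their spread. The ligand genes other than Il22 stayed under 1 FPKM in the mean of every group.

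Partner genes of the axis, a list of 21 cytokine subunits, receptor chains and signalling genes, had 19 members tested. In Model versus Blank, 8 rose and 1 (Il17rc) fell, with a median fold change of 0.21. The share called, 47.4%, was near the 44.1% of all genes, so the count says little of the list. Il12b, whose product completes IL-23, rose by 2.52 ± 0.70 on the log2 scale (edgeR adjusted p = 0.0194), from 0.069 to 0.772 CPM in Blank to 1.95 to 2.32 CPM in Model. Il12rb1, the partner chain of Il23r, rose by 2.11 (adjusted p = 0.0217), and Il10rb, the partner chain of Il22ra1, rose by 0.34 ± 0.10 (adjusted p = 0.0217). Stat3, the transcription factor that carries IL-22 and IL-23 signals, was at 148 to 173 CPM in Blank, 330.2 to 366 CPM in Model and 325 to 398 CPM in CDs. Its fold change was 1.15 ± 0.12 in Model (adjusted p = 3.38e-04) and 1.17 ± 0.12 in CDs (adjusted p = 4.77e-04), each against Blank. Jak1 (0.60 ± 0.12) and Stat4 (2.36 ± 0.48), a kinase and a transcription factor of the same pathways, rose in Model too. In CDs versus Blank, 8 rose and 0 fell. The count that rose in Model was 5 without Blank 2, without Blank 3 or without Model 2, and the count in CDs was 3 without Blank 2 and 5 without Blank 3 or without CDs 1. In Model versus Blank, Il12b lost its call without Blank 2 or Blank 3, Il12rb1 without Blank 2, Blank 3, Model 2 or Model 3, and Il10rb without Blank 2 or Model 2 (adjusted p = 0.0519 to 0.0733).

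Genes known to respond to IL-17 were mostly higher after DSS. Of 19 tested, 14 rose and 1 fell in Model versus Blank, with a median fold change of 4.85 beside -0.03 for all genes, and 16 rose and 0 fell in CDs versus Blank. Over all genes, 24.5% rose in Model and 21.8% in CDs. Steap4, an iron reductase, was at 7.53 to 11.6 CPM in Blank, 103 to 213 CPM in Model and 76.0 to 119 CPM in CDs (3.99 ± 0.32 in Model versus Blank, edgeR adjusted p = 2.25e-04). Il6, an inflammatory cytokine, rose by 8.28 ± 0.83, Mmp3, a matrix protease, by 7.86 ± 0.57, and Cebpd, a transcription factor, by 2.75 ± 0.25. Il6 had only 2, 2 and 1 reads in Blank 1 to 3, so the size of its rise is uncertain. The gene that fell was Pigr, which encodes the epithelial transporter of IgA, at 5214 to 7464 CPM in Blank and 1583 to 3743 CPM in Model (-1.44 ± 0.43, adjusted p = 0.0244). Its call was lost without Blank 1, Blank 2, Model 2 or Model 3 (edgeR adjusted p = 0.0590 to 0.0914). The part of epithelial content in its level was not tested. Many signals besides IL-17 act on these genes, and neutrophil markers, of which 6 of 7 rose in Model, summed to 74.6 to 92.4 CPM in Blank, 295 to 1083 CPM in Model and 384 to 678 CPM in CDs. Their part in these counts was not tested.

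Genes known to respond to IL-22 were also mostly higher after DSS. Of 15 tested, 11 rose and 0 fell in Model versus Blank, and 9 rose and 0 fell in CDs versus Blank, beside 24.5% and 21.8% of all genes. The list shares 4 genes with the IL-17 list. Socs3, the feedback inhibitor of STAT3 signalling, was at 8.30 to 18.2 CPM in Blank, 151 to 187 CPM in Model and 123 to 256 CPM in CDs (3.68 ± 0.35 in Model versus Blank, edgeR adjusted p = 2.77e-04). The acute-phase gene Saa3 rose by 7.43 ± 0.93 and the secreted glycoprotein gene Lrg1 by 5.10 ± 0.63. The count that rose in Model was 6 without Blank 3, 7 without Model 3 and 6 without the 3 libraries with pancreatic genes, where Model 2 is alone in its group.

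Reg3b and Reg3g, antimicrobial lectins that IL-22 induces in epithelium and that pancreatic acinar cells also make, were highest in Model 3 and Model 1, the libraries with the most pancreatic transcripts. Reg3b was at 14.1, 0 and 4.94 CPM in Blank 1 to 3, at 121, 41.9 and 777 CPM in Model, and at 27.8, 8.25 and 29.996 CPM in CDs. Model 1 and Model 3 had pancreatic acinar sums of 8405 and 70998 CPM, and Model 2 had 3.85 CPM. CDs 1, with a sum of 321 CPM, was below Model 2 and CDs 3 in both genes. The fold change of Reg3b was 5.61 ± 1.43 in Model versus Blank (edgeR adjusted p = 0.0135) and 2.70 without the 3 libraries with pancreatic genes (adjusted p = 0.0919), which leaves Model 2 alone in its group. Reg3g ran in the same order, at 28.2, 11.2 and 82.7 CPM in Model 1 to 3 and 0 to 7.72 CPM in Blank. How much of the Reg3b and Reg3g reads came from pancreas was not tested.

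**Figure D4:**
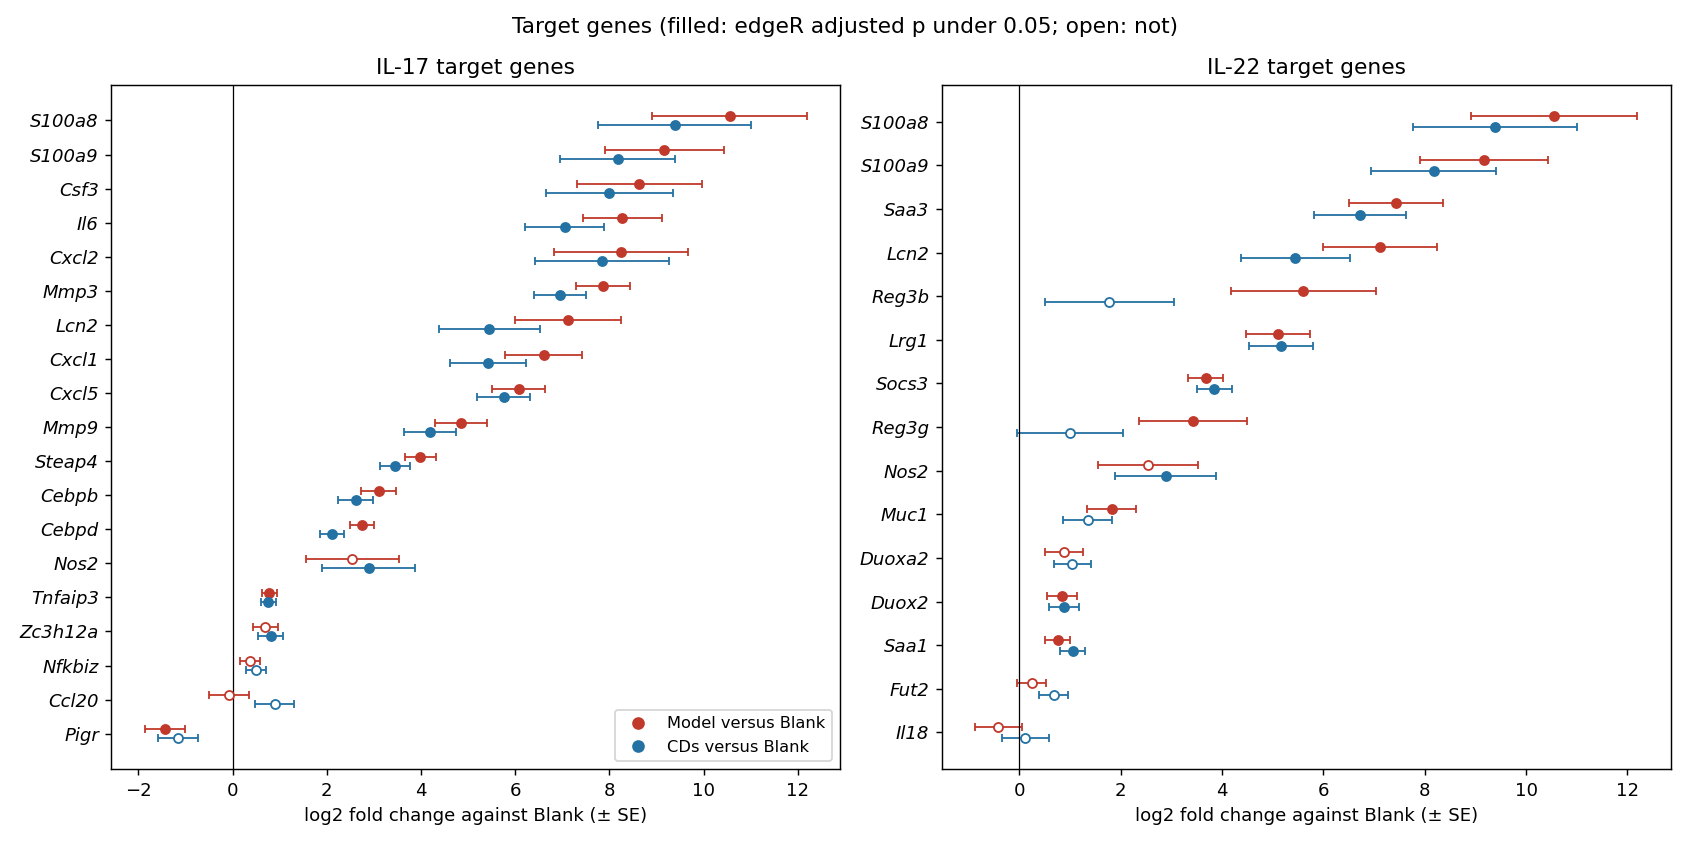
Fold change against Blank (log2, ± SE) of the tested genes known to respond to IL-17 (left) and IL-22 (right), for Model in red and CDs in blue, filled where the edgeR adjusted p is under 0.05. Most genes lie above 0 in both comparisons, Pigr lies below 0, and Reg3b and Reg3g are filled for Model alone.

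Markers of type 17 lymphocytes, the source of Il17a, Il17f and Il22, rose in part. Of 11 tested markers, 7 rose and 0 fell in Model versus Blank and in CDs versus Blank alike, beside 24.5% and 21.8% of all genes that rose, among them Tnfsf11 (4.48 ± 0.64), Zbtb16 (2.62 ± 0.36) and Batf (2.50 ± 0.35) in Model. The summed level of the list was 48.5 to 75.2 CPM in Blank, 120 to 165 CPM in Model and 103 to 151 CPM in CDs. Of 11 T cell markers, 3 rose and 0 fell in Model versus Blank, a share of 27.3% beside the 24.5% of all genes that rose, and the T cell sum was 29.5 to 75.7 CPM in Blank, 79.3 to 128 CPM in Model and 78.6 to 206 CPM in CDs. All 10 macrophage markers rose, with sums of 580 to 746 CPM in Blank and 1940 to 2603 CPM in Model. The part of these cells in the levels of the axis genes was not tested.

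**Figure D5:**
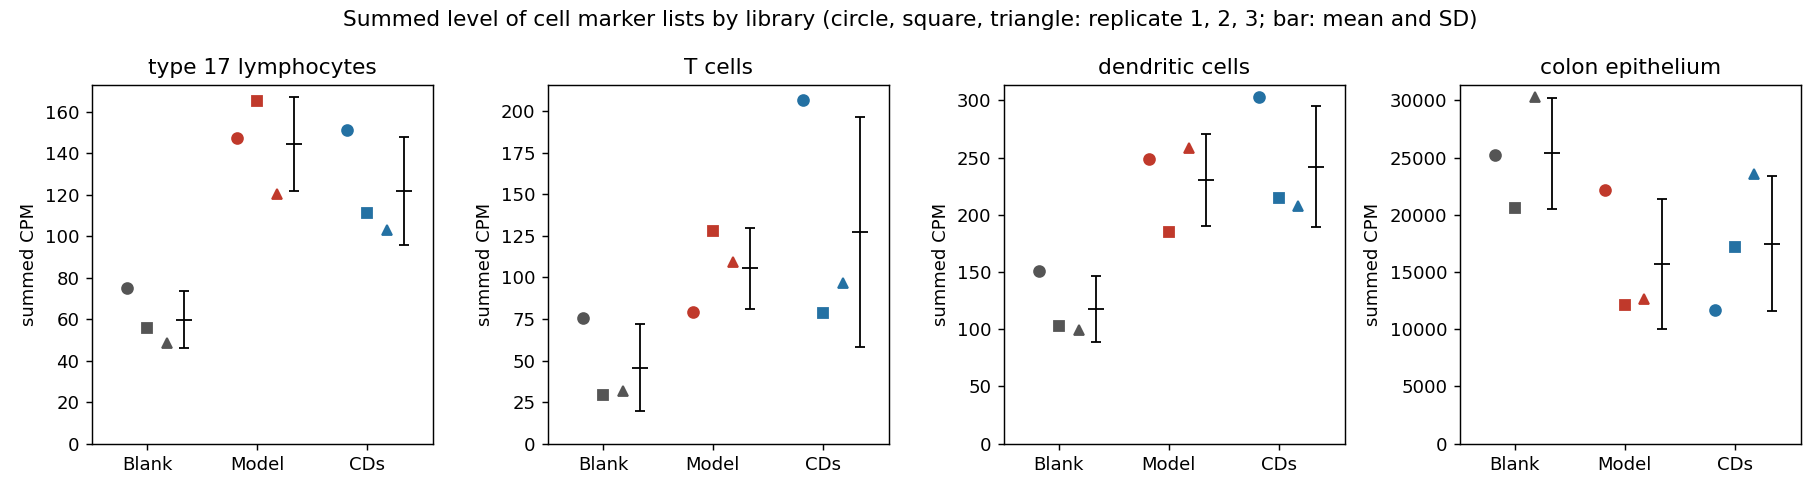
Summed level (CPM) of the marker lists of type 17 lymphocytes, T cells, dendritic cells and colon epithelium in each library, with mean and SD (n = 3) as a bar. CDs 1 has the highest T cell sum (206 CPM) and the lowest epithelial sum (11723 CPM) of the 9 libraries.

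Carbon dots given with DSS were compared with DSS alone, the comparison that asks what the particles change in colitis. None of the 7 tested genes was called (0 of 7), as was true of all 14921 genes in edgeR (0%), while 5.28% of all genes had an unadjusted p under 0.05 and DESeq2 called 51 genes. Groups overlapped for all 7 (0 of 7 apart), beside 7.99% of all genes that did not overlap. Il22 had the lowest unadjusted p among the 7 (0.0339), with a fold change of 2.03 ± 0.81 (edgeR adjusted p = 0.936). Il17f stood at 1.18 ± 0.93, Il23r at 0.50 ± 0.44, Il22ra2 at 0.39 ± 0.44, Il17ra at 0.28 ± 0.22, Il17re at 0.17 ± 0.45 and Il22ra1 at 0.14 ± 0.26, with adjusted p from 0.936 to 0.973. A p that misses the threshold does not show that carbon dots left these genes as they were.

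The Il22 and Il17f values of that comparison rested on CDs 1. CDs 1 was the highest of the 9 libraries for 6 of the 10 axis genes, 2 of them not tested, beside 17.2% of all tested genes. Its Il22 level was 4.74 times the mean of CDs 2 and CDs 3, its Il17a level 6.02 times and its Il17f level 8.85 times. Without CDs 1, the fold change of Il22 was 0.86 (edgeR adjusted p = 0.683) and that of Il17f turned to -0.73 (adjusted p = 0.753). CDs 1 also had the highest T cell sum, the lowest epithelial sum and a pancreatic acinar sum of 321 CPM, and the part of these in its cytokine levels was not tested. The target lists had 0 genes called in CDs versus Model in all 9 libraries and with each left out in turn, with medians of -0.53 for IL-17 and 0.04 for IL-22 beside 0.02 for all genes. Reg3b was -3.83 ± 1.30 (adjusted p = 0.904) there, beside the pancreatic sums given above. Zbtb16, of the type 17 list, was -1.30 ± 0.34 (edgeR adjusted p = 0.891) and was called by DESeq2 (adjusted p = 0.0484). The partner genes with the smallest p were Il17rb (0.79 ± 0.46) and Map3k7 (-0.13 ± 0.08), both with an adjusted p of 0.936.

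The genes whose levels ran most like each axis gene over the 9 libraries are given as a description, by Pearson's r of log2 CPM. The 9 libraries share the split between DSS-treated and untreated, so a high r is common. Il22 was nearest to Thop1 (0.965), Tvp23a (0.960) and Kcna3 (0.959), the last a potassium channel of lymphocytes. Il17ra ran close to Irf5, a transcription factor known from macrophages, and to Agap2 (each 0.994). Il17re was nearest to Myo1a (0.992), a brush border myosin, Nt5c3 (0.986) and Glod5 (0.986). Il22ra1 was nearest to Gtf2ird1 (0.995), Akap9 (0.992) and Sipa1l3 (0.990). Il22ra2 was nearest to Celsr1 (0.974), Srrm1 (0.974) and Sp1 (0.962). Il23r was nearest to Arpc2 (0.977), Clec1b (0.974) and Anxa2 (0.973), and Il17f to Patl1 (0.959), Kmt2a (0.948) and Cklf (0.945).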

How the data were processed

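Poly-A RNA was sequenced from 9 mouse colons, per the labels' protocols, with no step that marks the strand. The submitters' processing notes name fastp 0.22.0, HISAT2 2.1.0 and HTSeq 0.9.1, and no source used here names the genome build. The authors deposited a read count for each gene and library, and FPKM, which equalled count divided by gene length and library total in 100% of values (relative tolerance 1e-06), so FPKM was used only to compare genes per length. No row without a gene took reads (0%).

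Counts were tested with edgeR 4.0.16 in R 4.3.3, with TMM scaling, fitting the 9 libraries together with a coefficient for each group, on genes past filterByExpr (0.661 CPM in 3 libraries). P-values are two-sided and were adjusted over all 14921 genes tested. A gene that missed the filter was too low to judge. The SE was taken as the size of the fold change over the root of its F value. The test was also run on simulated counts, with changes put only into genes above a read limit. Nothing here rests on that run. The ratio of a gene to the summed CPM of epithelial markers was tested by exact permutation over samples in 21 tests. The smallest p adjusted over these was 0.42.

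The members and lists were chosen with earlier results of these data known. All members were named, with the 3 genes of each list that had the lowest p for Model against Blank, the 2 that had it for CDs against Model, and the 3 genes most like each tested member (Pearson's r of log2 CPM, prior count 2). Il17rc, Il10rb, Il12rb1, Il12b, Pigr, Xcr1 and Il22b were named after their values were seen. Some genes that the rule takes are not reported here. Alternatives were DESeq2 1.42.0, its size factors, no filter, a replicate block, the 6 libraries compared alone, each library left out, and the libraries with pancreatic or accessory gland genes left out. No 2 libraries of the same group were duplicates: 6.09% to 9.21% of genes with a read had equal counts in a pair. Pairs across groups were not compared in this way. The Il22 and Il22b transcripts were compared on GENCODE release M21 of GRCm38. Positions of genes are as deposited and those of promoters are RefSeq's on GRCm38.p6. These are not on 1 build and were not converted.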

Additional observations from a re-analysis of the deposited data

How the results depend on the processing

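Il17ra and Stat3 kept their direction and their calls against Blank without each library in turn and under DESeq2, its size factors, no filter and the replicate block. The number of the 7 genes called in Model versus Blank was 5 and ranged from 1 to 5 with each library left out. It was 0 without Blank 2 and Blank 3 together, as was the number in CDs versus Blank, which was 3 in all libraries and 3 to 4 with each left out. That fit has 1 untreated library, whose spread is borrowed from the other groups, and there Il17ra lost both calls and Stat3 its call in CDs versus Blank.

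In CDs versus Model, where no gene was called, some directions turned. With each library left out, Il22ra1 ranged from -0.13 (without CDs 3; -0.026 without Model 2) to 0.36, Il17re from -0.14 (without Model 3; -0.089 without CDs 3) to 0.71, and Il17f from -0.73 (without CDs 1) to 1.75. Without Model 1, Model 3 and CDs 1 together, Il17f was -0.47, Il17ra -0.092 and Il23r -0.19, and edgeR called 1241 genes, 0 of the 7 axis genes among them. There, Model is Model 2 alone, its spread is taken from the other groups, and 10 IL-17 targets (Il6 at -2.06, adjusted p = 0.00204), 3 IL-22 targets and 2 type 17 markers were called lower in CDs, and 1 IL-17 target, 2 IL-22 targets, 2 partner genes and 10 epithelial markers higher. The cause was not tested.

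For each gene, the group mean of log2 CPM was first subtracted. On these deviations, samples with the same replicate number correlated at -0.37 to 0.21 over 9 pairs, of which 3 were over 0.1. Samples of different groups with different numbers correlated at -0.35 to 0.47. The numbers were therefore not used as pairs, which does not show that no cage or day was shared. With that number as a replicate block, edgeR called 5672 genes in Model versus Blank and 4475 in CDs versus Blank, beside 6574 and 5309 without it. Il22ra1 in Model versus Blank then had an adjusted p of 0.0746, Il17rc 0.0650 and Pigr 0.0522, and Il22ra2 in CDs versus Blank 0.0442. Every sample correlating best with its own number held for 1 library. At 3 reads per library, genes such as Il17c and Il23a are below what this depth can compare.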
